A study of Mus musculus with 8 samples.

Results

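The genes described here are 34 mouse genes of fatty acid oxidation, ketogenesis and the response to PPARalpha. They were chosen by name as a pathway and not by their values, though earlier results of these data were known. All 34 were found among the 27453 genes of the files. They cover 10 steps, from the regulator Ppara to the enzymes of mitochondria, peroxisomes and microsomes. Liver RNA of 8 inbred C57BL/6JN animals was read as native molecules by nanopore direct RNA sequencing. The labels record no genetic change, no drug and no diet. The 4 libraries titled O carry 12 weeks in the age field and the 4 titled Y carry 80 weeks. The series text instead contrasts mice of about 2 months with mice of about 18 months and lists 4 biological replicates per group, and the labels of all 8 libraries name the old mice as the treated group. Titles and age field therefore point in opposite directions, and which set is the old one cannot be told from the labels. Groups are called by their titles, every fold change is O-titled over Y-titled, and no difference is read as a change with age. In each set replicates 1 and 2 are males and replicates 3 and 4 are females.

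Fatty acids reach the liver cell from blood or from its own fat droplets and are burned mainly in mitochondria. A long chain is first joined to coenzyme A, handed to carnitine to cross the inner mitochondrial membrane, and then shortened in repeated rounds of dehydrogenation, hydration, dehydrogenation and thiolysis. Electrons leave the first dehydrogenation through the electron transfer flavoprotein. Peroxisomes shorten very long chains with enzymes of their own, and microsomal cytochromes P450 of the Cyp4a family open a side route by hydroxylating the far end of the chain. In the liver much of the acetyl-CoA becomes ketone bodies, which other organs use during fasting. PPARalpha, a nuclear receptor that binds fatty acids, drives transcription of many of these genes and is known for its role in the fasting response of hepatocytes.

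Mapped reads ranged from 545171 to 2593200 per library, so that 3 reads, the floor of detection, equal between 1.15 and 5.94 CPM (counts scaled to a common library size). Levels and this floor are CPM of the reads in tested genes after scaling by the trimmed mean of M values (TMM). Of the 34 genes, 32 had enough reads for the edgeR quasi-likelihood test, and Acot2 and Pdk4 did not. Adjusted p values are from that test with Benjamini-Hochberg adjustment over all 6759 tested genes, and 0.05 is the threshold. Hepatocyte markers such as Alb and Ttr were high in every library, with sums of 86893 to 113604 CPM in O-titled and 90768 to 132324 CPM in Y-titled livers. In whole liver RNA, fewer cells of a type and less RNA per cell cannot be told apart.

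Comparing O-titled with Y-titled livers, 4 of the 32 tested genes were lower in O-titled livers and 0 were higher. They were Acsl1, which activates long-chain fatty acids, Etfdh, which passes electrons from the electron transfer flavoprotein to ubiquinone, Ehhadh, the L-bifunctional enzyme of peroxisomes, and Acot1, a thioesterase that splits acyl-CoA in the cytosol. Acot1 fell most, with a log2 fold change of -2.28, and the falls of the others lay between 0.47 and 0.61. Over all tested genes 4.01% passed, 2.09% as higher and 1.92% as lower. The other 28 genes did not pass, and 11 of the 32 had an unadjusted p under 0.05 (16.2% of all genes). Fold changes lay below 0 for 23 of the 32 (50.1% of all genes), with a median log2 fold change of -0.17 against -0.001 over all genes. O-titled livers lay wholly below Y-titled livers for 6 of the 34 genes, namely Acsl1, Hadhb, Acaa2, Etfdh, Acat1 and Acot1 (4.62% of all genes), and wholly above them for 0 (4.1%). Scaled by library totals alone, the median of all genes moved to 0.10 and the calls over all genes to 240 higher and 100 lower, from 141 and 130. On that scale 3 of the 32 genes were lower (1.48% of all genes), 0 were higher (3.55%) and 20 lay below 0 (36.2%), with a median of -0.07.

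**Figure D1:**
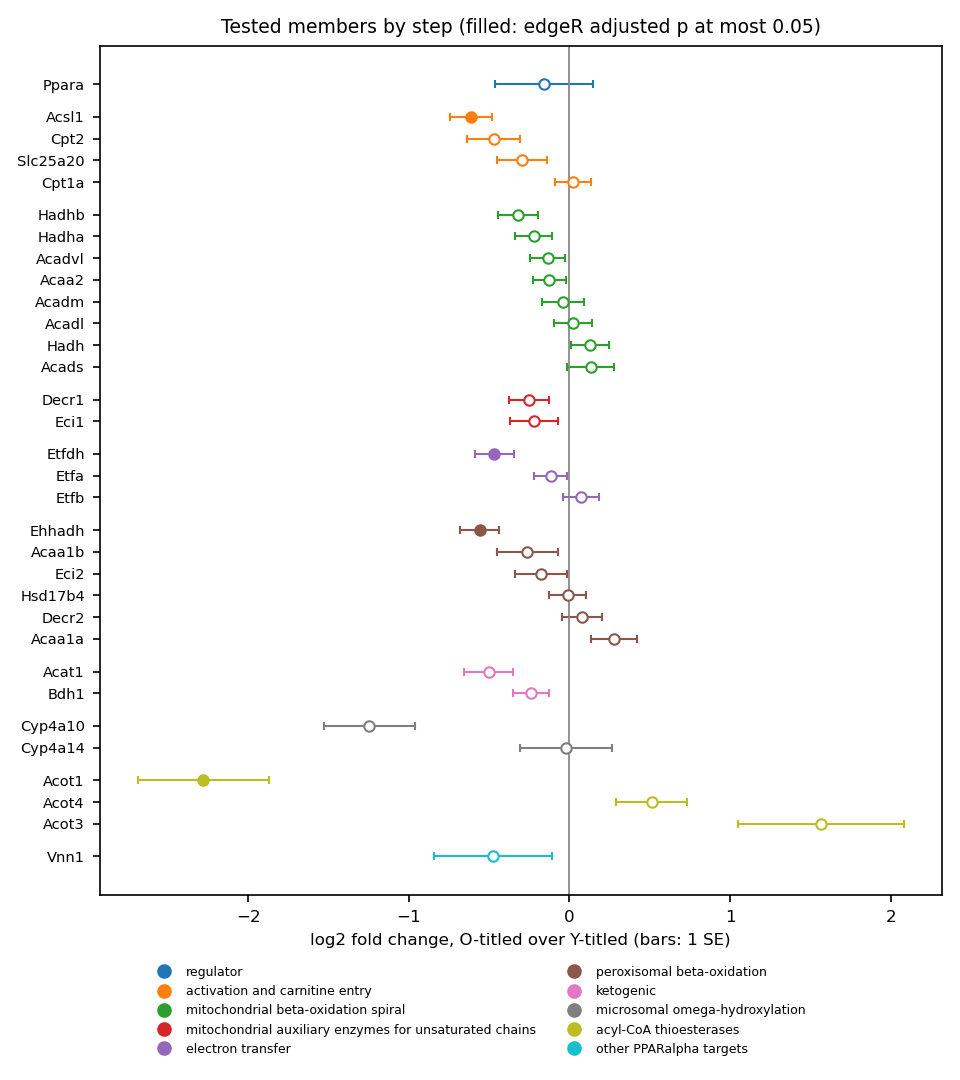
Log2 fold change of O-titled over Y-titled livers (x axis, bars of 1 SE, n = 4 libraries per group) for the 32 tested genes, sorted by step and coloured by it. Filled points passed the edgeR test, and the 4 filled points, Acsl1, Etfdh, Ehhadh and Acot1, all lie left of 0.

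The sequences before the transcription start were read for the genes that fell, since PPARalpha is known to bind with its partner RXR to a direct repeat of the letters AGGTCA with 1 base between them. RefSeq promoters on GRCm38.p6 were matched for 27 of the 34 genes, in 30 windows of the 250 bases before the start. The windows of Acsl1, Ehhadh and Acot1, which fell, of Acot2, the closest relative of Acot1, and of Acot4, which holds a match, are given 5′ to 3′ on the gene's strand, with matches of CCAAT (or ATTGG, its reverse complement) and of the direct repeat in capitals.
Acsl1 (chr8:46470787-46471036, plus strand): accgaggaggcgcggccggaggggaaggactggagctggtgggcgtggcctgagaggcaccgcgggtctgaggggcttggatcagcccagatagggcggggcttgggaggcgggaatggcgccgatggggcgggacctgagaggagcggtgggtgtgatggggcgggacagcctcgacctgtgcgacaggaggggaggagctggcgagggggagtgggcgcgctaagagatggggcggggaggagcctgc
Ehhadh (chr16:21787835-21788084, minus strand): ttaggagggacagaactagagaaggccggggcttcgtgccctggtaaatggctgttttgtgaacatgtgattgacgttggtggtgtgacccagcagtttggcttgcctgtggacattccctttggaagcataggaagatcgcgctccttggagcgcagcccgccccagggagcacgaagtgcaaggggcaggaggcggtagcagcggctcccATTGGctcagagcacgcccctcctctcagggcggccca
Acot1 (chr12:84009252-84009501, plus strand): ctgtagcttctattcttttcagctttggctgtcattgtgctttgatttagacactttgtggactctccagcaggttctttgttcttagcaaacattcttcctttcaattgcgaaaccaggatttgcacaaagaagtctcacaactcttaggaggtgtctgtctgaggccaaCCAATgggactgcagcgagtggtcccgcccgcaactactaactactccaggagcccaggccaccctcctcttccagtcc
Acot2 (chr12:83987611-83987860, plus strand): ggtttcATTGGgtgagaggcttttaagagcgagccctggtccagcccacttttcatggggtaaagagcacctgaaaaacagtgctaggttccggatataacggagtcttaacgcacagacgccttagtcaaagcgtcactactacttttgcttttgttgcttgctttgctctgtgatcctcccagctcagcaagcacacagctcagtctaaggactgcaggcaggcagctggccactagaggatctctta
Acot4 (chr12:84038129-84038378, plus strand): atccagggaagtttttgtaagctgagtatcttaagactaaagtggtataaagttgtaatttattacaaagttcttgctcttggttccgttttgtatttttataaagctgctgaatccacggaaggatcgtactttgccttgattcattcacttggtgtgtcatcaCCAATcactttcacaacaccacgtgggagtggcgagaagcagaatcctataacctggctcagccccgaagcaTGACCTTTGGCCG
The Acsl1 window is that of its main transcript, which carried 95.6% ± 0.65 of Acsl1 reads in O-titled and 96.7% ± 1.46 in Y-titled livers (SD, n = 4). A further RefSeq window of Acsl1, at chr8:46490716-46490965, holds 2 matches of CCAAT and none of the direct repeat, and is not shown. The RefSeq window of Etfdh was searched but is not shown, since it lies inside the GENCODE span of the gene given below.

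The motif AGGTCANAGGTCA, on either strand with up to 2 mismatches, was found in 2 of the 30 windows (6.67%, against 3.24% of all 32841 promoters), those of Acot4 and Etfa. In Acot4 it covers the last 13 bases before the start, on the opposite strand. With up to 1 mismatch it was found in 0 windows (0.484% of all promoters). A single exact AGGTCA was found in 4 windows, of Acadm, Acadvl, Acot4 and Cpt1a (13.3%, against 14.0%). CCAAT, looked for after the sequences were seen, was found on either strand in 16 windows of 15 genes (53.3%, against 33.9%). The windows of Acsl1, Etfdh, Ehhadh and Acot1 hold neither the direct repeat nor a single AGGTCA, which says only that these letters are not within 250 bases of those RefSeq starts.

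The regulator itself was read at a low level. Ppara had 31.9, 12.1, 13.02 and 31.5 CPM in O-titled replicates 1 to 4 and 32.7, 21.8, 29.4 and 20.6 CPM in Y-titled replicates 1 to 4. The ranges overlapped, and its log2 fold change of -0.16 (SE 0.30, adjusted p = 0.873) did not pass. Its sign turned positive without O-titled replicate 2 (0.0064) or without O-titled replicate 3 (0.036).

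Among the 4 genes of activation and carnitine entry, Acsl1 fell and 3 did not pass. Acsl1 (ENSMUSG00000018796, mm10 chr8:46471037-46536051, plus strand) joins long-chain fatty acids to coenzyme A. Its level was 279.8, 335, 230.1 and 284 CPM in the O-titled libraries and 403, 392, 514 and 408 CPM in the Y-titled libraries. Every O-titled liver lay below every Y-titled liver, males and females alike. The means were 282 ± 42.7 and 429.6 ± 57.01 CPM (SD, n = 4), and the log2 fold change was -0.61 (SE 0.13, edgeR adjusted p = 0.0102). Of the 4 calls this was the one that passed in all 19 alternatives computed, with adjusted p up to 0.0478. Cpt1a, the carnitine palmitoyltransferase of the outer membrane that controls entry, had 138, 145, 184 and 188 CPM in O-titled and 151, 146, 184 and 162 CPM in Y-titled livers. The ranges were nearly the same, with a log2 fold change of 0.02 (SE 0.11, adjusted p = 0.971) that turned to -0.030 without Y-titled replicate 4. Cpt2, which returns the chain from carnitine to coenzyme A inside the mitochondrion, had a log2 fold change of -0.47 (SE 0.16, adjusted p = 0.132). Slc25a20, the carnitine-acylcarnitine carrier between both palmitoyltransferases, had -0.29 (SE 0.16, adjusted p = 0.383).

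None of the 8 enzymes of the mitochondrial spiral passed. Their log2 fold changes ran from -0.32 to 0.13 with a median of -0.08, and 5 of the 8 lay below 0. The acyl-CoA dehydrogenases take the first step on very long (Acadvl), long (Acadl), medium (Acadm) and short (Acads) chains, and their log2 fold changes were -0.14, 0.02, -0.04 and 0.13. Hadha and Hadhb encode the subunits of the trifunctional protein, which carries out the next steps on long chains. Hadhb had 120.3, 155, 148 and 160.3 CPM in O-titled and 166, 170.2, 220.5 and 168 CPM in Y-titled livers. These ranges did not overlap, yet the log2 fold change of -0.32 (SE 0.13, adjusted p = 0.192) did not pass. Hadha, its partner, had a log2 fold change of -0.22 (SE 0.12, adjusted p = 0.368), with ranges that overlapped through O-titled replicate 4. Hadh, the dehydrogenase for shorter hydroxyacyl chains, had 0.13 (SE 0.12, adjusted p = 0.677). Acaa2, the thiolase that closes the round, had the most reads of this step, with 737, 814, 816 and 797 CPM in O-titled and 883, 831, 831 and 903 CPM in Y-titled livers. The sets lay just apart, and the log2 fold change of -0.13 (SE 0.10, adjusted p = 0.613) did not pass.

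Hadha and Hadhb, whose products form 1 complex, start back to back on chromosome 5 with 85 bases between them in GENCODE M21. This shared stretch, 69.4% G or C, lies at chr5:30155163-30155247 and reads, on the plus strand of GRCm38.p6:
Hadha-Hadhb: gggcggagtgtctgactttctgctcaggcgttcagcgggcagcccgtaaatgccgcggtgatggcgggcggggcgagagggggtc
Their log2 fold changes of -0.22 and -0.32, neither of which passed, differ by less than either standard error.

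Both auxiliary enzymes, which rearrange double bonds of unsaturated chains, were without a call. Decr1, the 2,4-dienoyl-CoA reductase, had 169, 208, 158 and 182 CPM in O-titled and 219.7, 172, 232 and 221 CPM in Y-titled livers. The log2 fold change of Decr1 was -0.25 (SE 0.13, adjusted p = 0.34), and that of the isomerase Eci1 was -0.22 (SE 0.15, adjusted p = 0.522).

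Of the 3 genes of electron transfer, Etfdh fell and 2 did not pass. Etfdh (ENSMUSG00000027809, mm10 chr3:79603788-79629500, minus strand), the oxidoreductase in the inner membrane, had 109, 132, 122 and 122 CPM in O-titled and 145, 158, 198 and 169.6 CPM in Y-titled livers. All O-titled values lay below all Y-titled values. The means were 121 ± 9.24 and 168 ± 22.4 CPM (SD, n = 4), and the log2 fold change was -0.47 (SE 0.12, edgeR adjusted p = 0.0355). Etfdh lost its call in 13 of 19 alternatives. Among them were the omission of any single library other than O-titled replicate 2 (adjusted p = 0.0576 to 0.146), DESeq2 (0.0837) and the replicate block in place of sex (0.0759). Etfb, a subunit of the flavoprotein from which Etfdh takes its electrons, had 354, 406, 477 and 475 CPM in O-titled and 423, 409.8, 389 and 395 CPM in Y-titled livers. Both O-titled females exceeded every Y-titled liver and O-titled replicate 1 was the lowest of all, with a log2 fold change of 0.07 (SE 0.11, adjusted p = 0.824). Etfa, the other subunit, had a log2 fold change of -0.12 (SE 0.10, adjusted p = 0.641).

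Of the 6 peroxisomal genes, Ehhadh fell and 5 did not pass. Ehhadh (ENSMUSG00000022853, mm10 chr16:21761287-21787807, minus strand) hydrates and then oxidises the chain. It had 136, 146, 205 and 188 CPM in O-titled and 192, 199.9, 356 and 254 CPM in Y-titled livers. The sets overlapped over all 8 libraries. Within males and within females, both O-titled livers lay below both Y-titled livers. The means were 169 ± 32.7 and 251 ± 75.8 CPM (SD, n = 4), and with sex in the fit the log2 fold change was -0.56 (SE 0.12, edgeR adjusted p = 0.0128). The call was lost without O-titled replicate 4 (adjusted p = 0.0537), without Y-titled replicate 3 (0.0706) and with no sex covariate (0.212). Hsd17b4, the D-bifunctional enzyme that catalyses the same pair of reactions with the other stereochemistry, had -0.01 (SE 0.12, adjusted p = 0.987). Acaa1b, a peroxisomal thiolase with the most reads of this step, had 542, 969.99, 371 and 559 CPM in O-titled and 972, 760.2, 557 and 605 CPM in Y-titled livers. Its spread within each set exceeded the difference between sets, and the log2 fold change was -0.26 (SE 0.19, adjusted p = 0.577). The other thiolase Acaa1a had 0.28 (SE 0.14, adjusted p = 0.368), the reductase Decr2 0.08 and the isomerase Eci2 -0.18. Transcripts of Acaa1a and Acaa1b were 96.6% identical over 1428 aligned bases, so reads could be split between them. Summed, in an alternative chosen after seeing the data, the thiolases had a log2 fold change of -0.14 (adjusted p = 0.738).

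Neither ketogenic gene passed. Acat1, the thiolase that joins acetyl units to acetoacetyl-CoA, had 251, 282, 205 and 266 CPM in O-titled and 335, 283, 480.5 and 326 CPM in Y-titled livers. The sets did not overlap, although O-titled replicate 2 and Y-titled replicate 2 were almost equal. The log2 fold change was -0.50 (SE 0.15, adjusted p = 0.089), and it passed without Y-titled replicate 2 (0.0435) and with no count filter (0.00201). Bdh1, which converts acetoacetate to beta-hydroxybutyrate, had a log2 fold change of -0.24 (SE 0.11, adjusted p = 0.294).

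The microsomal genes Cyp4a10 and Cyp4a14 are neighbours on chromosome 4 with 22121 bases between them, and neither passed. Cyp4a10 had 74.6, 88.7, 162 and 101 CPM in O-titled and 164, 107, 501 and 311 CPM in Y-titled livers. Y-titled females were highest and the sets overlapped. Its log2 fold change of -1.25 (SE 0.28, adjusted p = 0.0653) did not pass. It passed with the replicate block (0.0180), in DESeq2 (0.000289), at a minimum count of 30 (0.0407) and without O-titled replicate 4 (0.0453), Y-titled replicate 2 (0.0153) or Y-titled replicate 3 (0.0176), among 8 of 19 alternatives in all. Reads of Cyp4a10 may be split with Cyp4a31 and Cyp4a32, whose transcripts are 95.9% and 97.2% identical to it. The sum of these 3 genes had a log2 fold change of -1.27 (SE 0.26, adjusted p = 0.0422), in an alternative chosen after seeing the data. Cyp4a14 had 114, 165, 396 and 209 CPM in O-titled and 111, 89.1, 443 and 347 CPM in Y-titled livers. Here the females of both sets were high, and the log2 fold change was -0.02 (SE 0.28, adjusted p = 0.992), with a sign that turned in 6 of 19 alternatives.

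Of the thioesterases, which release free fatty acid from acyl-CoA, Acot1 fell. Acot2, Acot1, Acot4 and Acot3 lie in this order in a cluster on the plus strand of chromosome 12. Acot1 (ENSMUSG00000072949, mm10 chr12:84009490-84018371, plus strand) had 9.99, 8.06, 8.68 and 9.10 CPM in O-titled and 22.03, 29.7, 101 and 44.9 CPM in Y-titled livers, which rests on 55 reads in the O-titled and 210 reads in the Y-titled libraries. The O-titled values lay close together, but on only 26, 6, 10 and 13 reads in replicates 1 to 4, too few to measure their spread. The Y-titled values were spread, with Y-titled replicate 3 highest. The means were 8.96 ± 0.811 and 49.4 ± 35.7 CPM (SD, n = 4), and the log2 fold change was -2.28 (SE 0.41, edgeR adjusted p = 0.0156). The call was lost without O-titled replicate 4 (adjusted p = 0.0826) and with no sex covariate (0.0814). Acot1 and Acot2 transcripts are 94.3% identical over 1330 aligned bases, and their sum also fell (-1.98, SE 0.35, adjusted p = 0.0104), in an alternative chosen after seeing the data. Acot2, the mitochondrial enzyme, had 16 reads in O-titled and 13 in Y-titled libraries in all and was compared with an exact permutation test over 70 assignments (two-sided p = 0.886, smallest possible 0.0286).

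Acot3 and Acot4, thioesterases of peroxisomes, had fold changes above 0 and did not pass. Acot3 had 8.46, 2.69, 72.1 and 158 CPM in O-titled and 3.15, 0, 57.9 and 20.6 CPM in Y-titled livers, with 0 reads in Y-titled replicate 2, where 3 reads would be 5.94 CPM. The high values were all in females, and the SD within O-titled livers exceeded the difference between the means. The log2 fold change of Acot3 was 1.56 (SE 0.52, adjusted p = 0.195), and it passed in DESeq2 (0.0236) and without O-titled replicate 3 (0.0334). Summed with Acot4, Acot5 and Acot6, in an alternative chosen after seeing the data, Acot3 had 0.82 (SE 0.38, adjusted p = 0.374). Acot4 had 36.1, 24.2, 52.1 and 75.6 CPM in O-titled and 25.8, 17.8, 58.8 and 29.6 CPM in Y-titled livers, with a log2 fold change of 0.51 (SE 0.22, adjusted p = 0.261).

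Of the 2 remaining PPARalpha targets, Vnn1, a pantetheinase, had 36.5, 55.1, 18.2 and 44.1 CPM in O-titled and 54.1, 19.8, 61.6 and 61.04 CPM in Y-titled livers. These overlapped widely, with a log2 fold change of -0.47 (SE 0.37, adjusted p = 0.615). Pdk4, a kinase that shuts off pyruvate dehydrogenase, had only 16 reads in O-titled and 22 in Y-titled libraries. The difference in log2(CPM + 0.5) was -1.07 (exact permutation test, two-sided p = 0.114, smallest possible 0.0286), which is not a detectable difference at this depth.

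**Figure D2:**
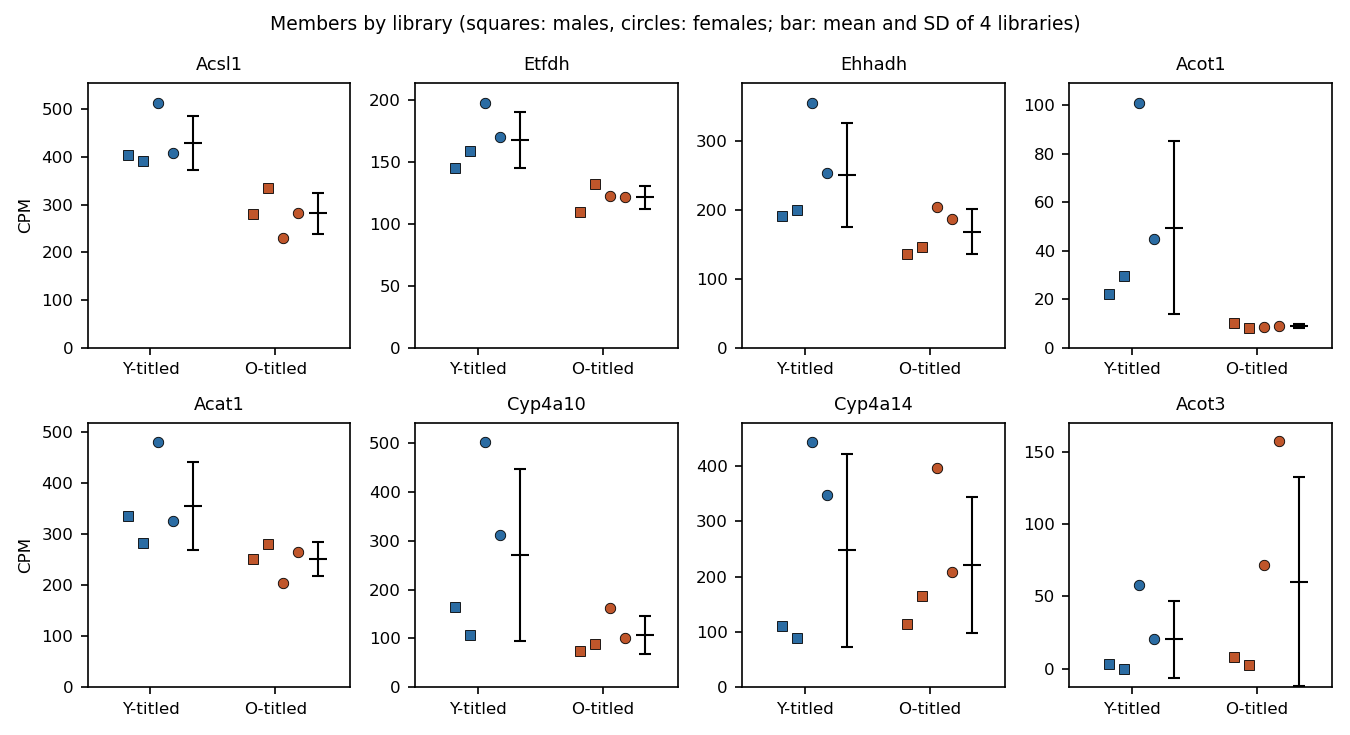
Level in CPM (y axis) of 8 genes in each library, Y-titled in blue and O-titled in orange, with squares for males, circles for females and a bar for the mean and SD of 4 libraries. Acsl1, Etfdh, Acot1 and, by a narrow margin, Acat1 separate the sets without overlap, whereas Cyp4a14 and Acot3 separate females from males.

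Summed over its genes, each step was set side by side between the groups as a description, with no test. Activation and carnitine entry summed to 555, 645, 526 and 634 CPM in O-titled and 745, 711, 889 and 765 CPM in Y-titled livers. These sums did not overlap, and the ratio of means was 0.759. Without Acsl1, which had the most reads of this step, the ratio was 0.886 and the ranges overlapped. The ketogenic pair summed to 394, 435, 363 and 417 CPM in O-titled and 492, 447, 675 and 528 CPM in Y-titled livers, again apart, with a ratio of 0.751 that was 0.883 in males and 0.648 in females. Bdh1 alone, without Acat1, overlapped between groups, with a ratio of 0.844. The spiral (ratio 0.940), electron transfer (0.947) and the peroxisomal step (0.899) overlapped between groups. The microsomal pair gave 0.632 over all, 0.938 in males and 0.542 in females, and without Cyp4a14, which had the most reads of this pair, 0.394. The 17 mitochondrial genes of activation, spiral, auxiliary steps and electron transfer were also summed. Together they ranged from 3529 to 4004 CPM in O-titled and from 4013 to 4480 CPM in Y-titled livers. The ratio was 0.902, with ranges that just failed to meet. The closest sums were those of O-titled replicate 4 and Y-titled replicate 2, where Acsl1 alone had 284 and 392 CPM. Without Acsl1 the ranges of the summed mitochondrial genes overlapped. Scaled by library totals alone the ratio of the 17 genes was 0.958, that of the spiral 0.999 and that of electron transfer 1.008, on the other side of 1.

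**Figure D3:**
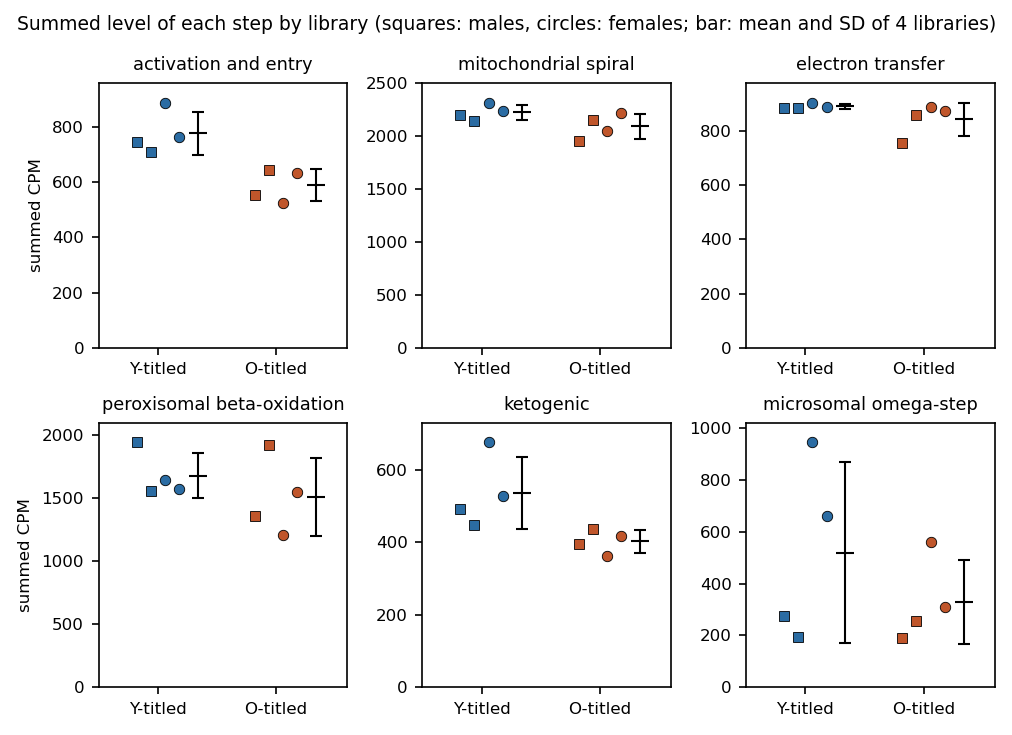
Summed CPM (y axis) of the genes of 6 steps in each library, with squares for males, circles for females and a bar for the mean and SD of 4 libraries. Activation and entry and the ketogenic pair lie apart between the sets, though not without Acsl1 and Acat1 respectively, and the other 4 steps overlap.

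The libraries did not contribute evenly. Y-titled replicate 3, a female, was the highest of the 8 libraries for 17 of the 34 genes (50.0%, against 13.1% of all tested genes), and O-titled replicates 1 and 3 were the lowest for 11 and 10 (6.73% and 14.6% of all tested genes). Refitted without Y-titled replicate 3, 3 of 32 genes were lower (Acsl1, Acot1 and Cyp4a10, with 1.25% of all genes), 0 were higher (1.23%), 21 lay below 0 (49.8%) and the median was -0.11 against 0.0011 over all genes, in a summary chosen after seeing the data. Among cell type markers, 12 of 12 tested Kupffer cell and macrophage genes had fold changes above 0 (3371 of 6759 over all genes), with a median of 0.58. Of these 12, 0 passed (2.09% of all genes higher), and 6 had an edgeR unadjusted p under 0.05 (16.2% of all genes). Their sums were 1678, 621, 1741 and 1351 CPM in O-titled replicates 1 to 4 and 742 to 921 CPM in Y-titled livers. Stellate cell and fibroblast markers summed to 236 to 296 CPM in O-titled and 166 to 221 CPM in Y-titled livers, without overlap, and of 5 tested 1, Dcn, rose (adjusted p = 0.00956), 3 in all lay above 0 and 2 below it, down to -0.66. Of the 8 hepatocyte markers, 5 lay below 0 (50.1% of all genes) and 3 above it, with a median log2 fold change of -0.13, and 0 passed. In males 7 of the 8 lay below 0 (50.3% of all genes), and in females 1 was called lower (2.74%). Periportal and pericentral hepatocyte markers overlapped in their sums. Of 7 periportal genes 1, Cyp2f2, fell (log2 fold change -0.93, edgeR adjusted p = 7.81e-05, against 1.92% of all genes lower). Of these 7 genes, 4 lay below 0 and 3 above it, up to 0.54, with a median log2 fold change of -0.04. In males 5 of the 7 lay below 0 and in females 1 (50.3% and 50.8% of all genes). The 5 fat cell markers summed to 5.60 to 21.5 CPM in O-titled and 17.0 to 25.1 CPM in Y-titled livers, with Plin1 and Lep at 0 reads, and the 1 tested had a log2 fold change of -0.52 (adjusted p = 0.505). The part of these cell types and of that library in the falls of Acsl1, Etfdh, Ehhadh and Acot1 was not tested.

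Between the sexes, 4 of the 32 genes were higher in females and 0 were lower (1.81% and 1.15% of all genes, 2.96% in all). Acot3 rose most, from 3.57 ± 3.54 CPM in the 4 males to 77.03 ± 57.9 CPM in the 4 females (SD), a log2 fold change of 4.03 (SE 0.59, edgeR adjusted p = 0.0191). Cyp4a14 rose from 119.97 ± 32.2 to 349 ± 101 CPM (1.53, SE 0.29, adjusted p = 0.0427), and each female exceeded each male for both genes. The same separation held for Cpt1a, whose log2 fold change of 0.31 (SE 0.11, adjusted p = 0.213) did not pass, and for no other gene of the 34 (3.15% of all genes), while 0 had each female below each male (3.37% of all genes). Acot4 rose from 25.98 ± 7.59 to 54.03 ± 19.04 CPM (0.96, SE 0.22, adjusted p = 0.0273). Ehhadh rose from 169 ± 31.9 to 251 ± 75.9 CPM (0.56, SE 0.12, adjusted p = 0.0158), with overlap, since O-titled females and Y-titled males met. Cyp4a10, the neighbour of Cyp4a14, had 1.14 (SE 0.28, adjusted p = 0.111) and did not pass. Acaa1b, whose spread within each set was wide, was lower in females, at 523 ± 104 CPM against 811 ± 205 CPM in males. Its log2 fold change of -0.64 (SE 0.19, edgeR adjusted p = 0.150) did not pass. Thinning to the shallowest library ended the sex calls of Ehhadh (0.100) and Acot4 (0.0933), and limma voom those of Cyp4a14 (0.0539) and Acot3 (0.0704). None of these sex calls held through the omission of every library. Ehhadh lost its call without O-titled replicate 1 (adjusted p = 0.0524), Y-titled replicate 1 (0.0747) or Y-titled replicate 3 (0.0701). Acot3 lost it without O-titled replicate 1 (0.104), O-titled replicate 2 (0.0770), Y-titled replicate 1 (0.0926) or Y-titled replicate 2 (0.0579). Cyp4a14 kept its call only without O-titled replicate 2 or 4 (0.0685 to 0.160 otherwise), and Acot4 only without O-titled replicate 3 or Y-titled replicate 4 (0.0676 to 0.133 otherwise).

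Within females, 6 genes were lower in O-titled livers and 0 were higher, in comparisons of 2 with 2 libraries that share the spread of all 8 (2.74% of all genes lower, 5.47% in all). They were Acot1 (-3.02, SE 0.40, edgeR adjusted p = 0.000302), Acsl1 (-0.84, SE 0.16, 0.00291), Cyp4a10 (-1.63, SE 0.32, 0.033), Acat1 (-0.77, SE 0.18, 0.0189), Ehhadh (-0.64, SE 0.16, 0.0261) and Etfdh (-0.59, SE 0.16, 0.0395). Of these calls, 5 of the 6 were lost without at least 1 library. Without Y-titled replicate 3, 2 genes were called, and Acsl1 (adjusted p = 0.0900), Etfdh (0.355), Ehhadh (0.459) and Acat1 (0.355) were not. Etfdh passed only without O-titled replicate 1 or 2 (0.0544 to 0.355 otherwise). Ehhadh was also lost without O-titled replicate 3 (0.0586) or 4 (0.165), Acat1 without O-titled replicate 3 (0.157), and Cyp4a10 without O-titled replicate 1 (0.0807), 2 (0.0827) or 4 (0.0589). In DESeq2, Etfdh (0.253) and Ehhadh (0.145) were not called within females. In a fit of the 4 female libraries alone, Etfdh (0.0737), Ehhadh (0.0781) and Acat1 (0.0563) were not called. Acot1 was called without any 1 of the 8 libraries, at adjusted p up to 0.0134.

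Within males, 0 of the 32 genes passed in either direction (1.26% of all genes, 0.636% as higher and 0.621% as lower), and 0 passed in DESeq2 or limma voom. The smallest adjusted p was 0.274, for Acot1, and 4 genes had an unadjusted p under 0.05 (9.45% of all genes). In males the log2 fold changes were -1.35 for Acot1 (SE 0.46), -0.38 for Acsl1 (SE 0.16), -0.47 for Ehhadh (SE 0.17) and -0.34 for Etfdh (SE 0.17). Fold changes lay below 0 for 23 of 32 genes within each sex (50.3% of all genes in males and 50.8% in females), with a median of -0.10 in males and -0.32 in females. The difference between the sexes was tested as an interaction, and 0 of the 32 genes passed (0.385% of all genes), nor did any in DESeq2 or limma voom, with 4 at an unadjusted p under 0.05 (8.46% of all genes). The smallest adjusted p was 0.433, for Acadm, whose log2 fold change was 0.26 in males and -0.33 in females. The sets lay apart in opposite directions in the sexes for 3 genes, Cpt1a, Acadm and Etfb (5.67% of all genes). A difference between the sexes in the change from Y-titled to O-titled livers was thus not shown for any of the 32 genes.

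**Figure D4:**
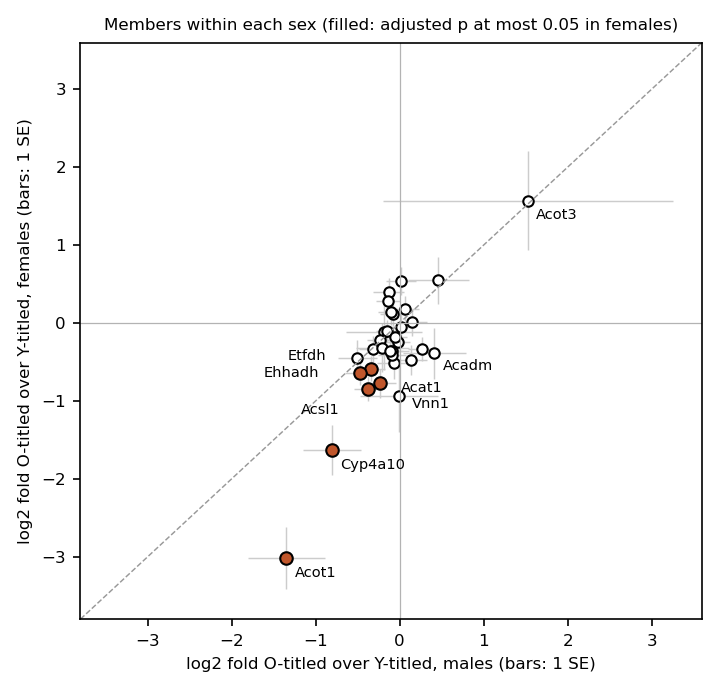
Log2 fold change of O-titled over Y-titled livers in males (x axis) and in females (y axis) for the 32 tested genes, with bars of 1 SE and a dashed line of equal change. The 6 filled points passed in females, where 2 libraries were compared with 2, and all lie below 0 in both sexes.

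Around these genes, 93 other genes of the same pathways were listed, of which 75 could be tested, 4 rose and 10 fell (2.09% and 1.92% of all genes), with a median log2 fold change of -0.13 against -0.001 over all genes. The smallest adjusted p was that of Crot, the peroxisomal carnitine octanoyltransferase that exports shortened chains. Crot had 322, 257, 309.9 and 273 CPM in O-titled and 638, 687, 729 and 875 CPM in Y-titled livers. Even the lowest Y-titled liver was well above the highest O-titled liver, with a log2 fold change of -1.32 (SE 0.12, edgeR adjusted p = 4.81e-06). Hacl1, a lyase of peroxisomal alpha-oxidation, fell by 0.78 (SE 0.12, adjusted p = 0.000644), a call lost with no sex covariate (0.377). Abcd2, a transporter that carries fatty acyl-CoA into peroxisomes, rose (0.77, SE 0.19, adjusted p = 0.0259), but not with the replicate block (0.0619), with no sex covariate (0.186), in DESeq2 (0.0839) or without O-titled replicate 1 (0.112), Y-titled replicate 1 (0.121) or Y-titled replicate 4 (0.0795).

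Beside the ketogenic pair, Slc16a1, a transporter of ketone bodies and lactate, had 30.4, 12.1, 20.8 and 18.9 CPM in O-titled and 56.02, 45.5, 85.4 and 61.9 CPM in Y-titled livers. It fell without overlap (-1.48, SE 0.24, edgeR adjusted p = 0.00227). Angptl4, a secreted inhibitor of lipoprotein lipase and a known PPARalpha target, fell from 146 ± 41.8 to 53.7 ± 15.9 CPM (SD, n = 4), a log2 fold change of -1.50 (SE 0.19, adjusted p = 0.000194). Plin5, a coat protein of lipid droplets, fell (-1.09, SE 0.26, adjusted p = 0.027), but not with the replicate block (0.0660), thinned (0.213), on its main transcript alone (0.0876) or without any 1 library other than O-titled replicate 2 or Y-titled replicate 1 (0.0506 to 0.109). Plin2, Creb3l3, Cyp4f14 and Acox2 were the other genes that fell.

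The other 3 genes that rose were Cd36, Acsl3 and Por. Cd36, a fatty acid transporter of the cell surface, had 54.6, 63.1, 115 and 95.9 CPM in O-titled and 32.1, 31.7, 35.8 and 52.96 CPM in Y-titled livers (1.07, SE 0.17, edgeR adjusted p = 0.000928). Acsl3, an acyl-CoA synthetase like Acsl1, had 37.7, 42.99, 38.2 and 46.9 CPM in O-titled and 18.3, 15.8, 24.8 and 17.1 CPM in Y-titled livers (1.09, SE 0.19, adjusted p = 0.00252). Both genes were higher in every O-titled than in every Y-titled liver, the reverse of Acsl1. Por, the reductase that feeds electrons to microsomal cytochromes P450 such as Cyp4a10, rose from 149 ± 41.4 to 399 ± 199 CPM (SD, n = 4; 1.34, SE 0.15, adjusted p = 4.25e-05). Cyp4a12a, an omega-hydroxylase read almost only in males, had 36.9, 91.4, 0 and 0 CPM in O-titled and 261, 216, 0 and 0.898 CPM in Y-titled livers. Its fall (-2.07, SE 0.33, adjusted p = 0.00644) rests on 2 males against 2, did not pass within males alone (0.16) and was lost without Y-titled replicate 4 (0.196) and with no sex covariate (0.728). With no sex covariate the calls of Cd36 (0.0574) and Por (0.178) were lost too.

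**Figure D5:**
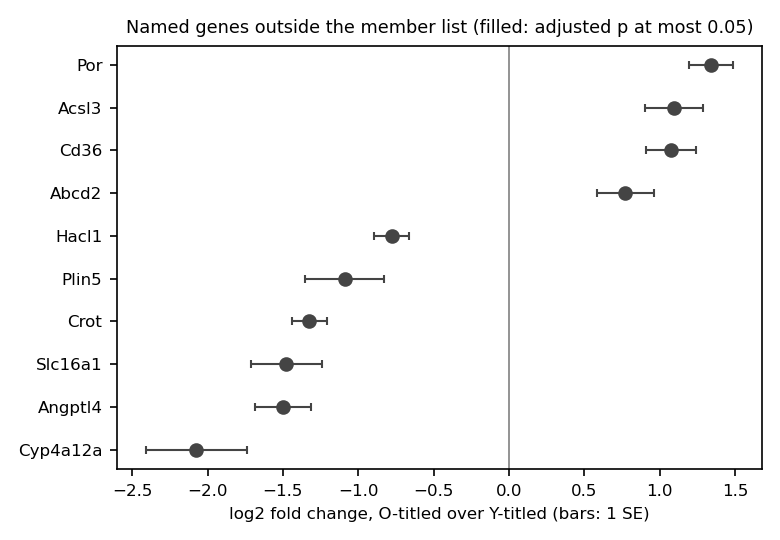
Log2 fold change of O-titled over Y-titled livers (x axis, bars of 1 SE, n = 4 libraries per group) for 10 other genes of the pathway. Por, Acsl3, Cd36 and Abcd2 lie right of 0, the other 6 lie left of 0, and all 10 passed.

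Because reads were counted per transcript, the share of each transcript within its gene could be tested for 9 of the 34 genes. The test of transcript usage called 0 of the 9 (0.0% of 1236 genes), and 0 of the 9 had an unadjusted p under 0.05 (0.647% of all genes), with 0.446 the smallest, for Acsl1. Etfdh-201 held 61.3% ± 8.18 of Etfdh reads in O-titled and 60.5% ± 3.56 in Y-titled livers (SD, n = 4). Cyp4a10-201 held 86.4% ± 2.33 and 84.1% ± 3.29 of Cyp4a10 reads. For Acsl1, Etfdh and Cyp4a10 the share of the main transcript differed between the sets by less than the larger of their SDs.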

How the data were processed

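The deposited tables hold whole-number read counts per transcript, without normalization, for 53983 transcripts of 27453 genes in 8 mouse liver libraries. Per the labels' protocols, oligo(dT) beads enriched poly(A) RNA, 5′ ends received a ligated adapter, and sequencing used R9.4.1 MinION flow cells. The submitters' processing notes name minimap2 2.24, mm10 and DESeq2, without roles. The counting tool, annotation release, strand setting and treatment of reads that match several transcripts are not given in the sources used here, so close paralogs and overlapping genes are uncertain.

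Transcript counts were added up per gene, and genes were compared by edgeR 4.0.16 under R 4.3.3 (filterByExpr at a minimum count of 10, TMM scaling, robust quasi-likelihood fit, Benjamini-Hochberg adjustment over 6759 genes). Sex was a covariate, and a fit of 4 groups of sex and title gave the within-sex values and the interaction. Standard errors are the absolute log2 fold change over the square root of F. Transcript usage was tested with diffSpliceDGE. The pipeline was tested on simulated data. The labels call the libraries biological replicates, and same-sex pairs of a set differed beyond sampling noise (chi-square over degrees of freedom 3.26 to 8.35). Same-numbered libraries deviated together (correlations 0.41, 0.22, 0.27 and 0.376), which counts as paired by the rule used. O-titled replicates 1 to 4 correlated with a Y-titled library of another number at up to 0.23, 0.46, 0.30 and 0.380. The same number was thus not the best match for replicates 2, 3 and 4, and the numbers do not single out pairs. With sex means removed, the same-number correlations were -0.06 and -0.03. Alternatives were another scaling, count filters, DESeq2 1.42.0, limma voom 3.58.1, thinning, leaving out each library, other covariates and the main transcript alone.

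The 34 genes and all lists were chosen with earlier results of these data known. Values per library are given for genes that passed any comparison, for Ppara and Cpt1a, for the gene with the most reads in each step and for the 3 largest fold changes. Of the other pathway genes, up to 10 called ones by size of change are named with values. Some pathway genes are not reported here. Hadhb, the Acot4 promoter and the transcript shares of Acsl1, Etfdh and Cyp4a10 were added after their values were seen.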

Additional observations from a re-analysis of the deposited data

Results flagged for a closer look

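In 4 of 88 gene-by-group sets of 4 libraries, 1 library stood apart by Dixon's criterion, which chance gives in about 1 set in 20. Acsl1 had 514 CPM in Y-titled replicate 3, against 392 to 408 CPM in the other Y-titled libraries. Hadhb had 220.5 CPM in the same library, against 166 to 170.2 CPM. Eci1 had 139.7 CPM in O-titled replicate 2, against 97.2 to 97.6 CPM, and Hadha 221 CPM in O-titled replicate 4, against 187 to 191 CPM.

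For 3 genes the O-titled and Y-titled livers separated in opposite directions in the sexes, which was seen for 5.67% of all tested genes. Cpt1a was lower in O-titled males (-0.08) and higher in O-titled females (0.11), a difference of 0.19 on the log2 scale (edgeR interaction, adjusted p = 0.904). Acadm was higher in O-titled males (0.26) and lower in O-titled females (-0.33), a difference of -0.59 (adjusted p = 0.433). Etfb was lower in O-titled males (-0.14) and higher in O-titled females (0.28), a difference of 0.42 (adjusted p = 0.586). None of the 3 differences passed the test.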

How the results depend on the processing

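With no count filter, 600 genes and 7 of the 34 were called between the sets, 401 and 7 between the sexes, 211 and 2 within males, and 100 genes in the interaction. A minimum count of 30 left 177 genes between the sets and removed Acot1 from the test. Thinning to the shallowest library gave 138 genes between the sets, and 110 genes and 1 of the 34 between the sexes. Without the sex covariate 134 genes and 1 of the 34 were called. DESeq2 called 191 genes within females, limma voom 2 of the 34 between the sexes, and a fit of the 4 female libraries alone 3 of the 34. Leaving out 1 library gave 154 to 294 genes and 3 to 5 of the 34 between the sets, 125 to 217 and 0 to 4 between the sexes, 31 to 127 and 0 within males, 133 to 371 and 2 to 5 within females, and 8 to 45 genes in the interaction. Without Y-titled replicates 3 and 4 in turn, 176 and 154 genes were called between the sets. With the replicate block 184 genes and 4 of the 34 were called, and beyond the changed calls given beside Etfdh, Cyp4a10, Plin5 and Abcd2 it changed no other call of the genes named. Uncalled changes that turned sign were Cyp4a14 (0.072 with library totals, 0.012 in DESeq2, 0.0013 for its main transcript, and -0.17 to 0.25 over single omissions, above 0 without O-titled replicate 1, O-titled replicate 4 or Y-titled replicate 3), Ppara (-0.44 to 0.036, above 0 without O-titled replicates 2 and 3 in turn) and Cpt1a (-0.030 to 0.061, below 0 without Y-titled replicate 4). Summed ratios moved with library totals (0.958 for the 17 mitochondrial genes, 0.999 for the spiral, 1.008 for electron transfer) and without the gene of most reads in a step (0.886 for activation and entry, 0.855 for electron transfer, 0.844 for the ketogenic pair, 0.394 for the microsomal pair and 0.420 for the other PPARalpha targets). Acot2 and Pdk4 had 13 to 22 reads per set and Acot3 had 0 in 1 male, so depth limits their values. The causes of these shifts were not tested.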
